A study of Mus musculus with 4 samples.

Results

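The unfolded protein response genes are 30 named genes of endoplasmic reticulum stress signalling, all 30 found by symbol among the 13518 genes of the deposited single-cell table. They were chosen by name and not by a rule on their values, though earlier results of these data were known. They are kept here in 3 groups: 5 sensors and transcription factors, 19 chaperone and degradation genes known as targets of Xbp1 or Atf6, and 6 genes known as targets of Atf4. The series measured single-cell RNA in tumours grown orthotopically in C57BL/6 mice from MC38 cells, a mouse colon carcinoma line, and harvested 2 weeks after the first treatment. Mice received anti-PD-1, an antibody that blocks the T cell receptor PD-1 and was given 3 times a week for 5 doses; ATT-I (Atractylenolide I, a sesquiterpene lactone from Atractylodes rhizomes) at 50 mg/kg daily; both agents (the combination); or vehicle. The vehicle sample's own entry says that it had no treatment, while the protocol names a vehicle, and mouse age and sex were not given in the sources used here. Each arm is 1 droplet library from 5 pooled tumours, so the arms have no replicate and no test between arms was made.

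The endoplasmic reticulum folds secreted and membrane proteins, and unfolded proteins there activate 3 sensors. Ern1 (IRE1) splices the mRNA of the transcription factor Xbp1, Atf6 is itself cut to release a transcription factor, and the kinase Eif2ak3 (PERK) slows translation while favouring that of Atf4. Spliced Xbp1 and Atf6 raise chaperones and the machinery that pulls misfolded proteins out for degradation, whereas Atf4 raises genes of amino acid supply and the stress factors Ddit3 (CHOP), Atf3 and Trib3. In T cells this response is known to accompany activation and the synthesis of secreted effector proteins. Counts per gene do not separate spliced from unspliced Xbp1, and Atf6 cutting and Eif2ak3 activity are not visible in RNA.

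The promoters of the chaperone genes were read first, since Xbp1 and Atf6 act through known DNA elements. Of the 30 genes, 26 had a RefSeq promoter window (GRCm38.p6) of 250 bases before to 50 bases after the gene start; Manf, Derl1, Atf6 and Hyou1 did not. The endoplasmic reticulum stress element is CCAAT and CCACG with 9 bases of any kind between them. Searched on both strands, it was found in 6 of 16 chaperone genes (37.5%), in 0 of 6 Atf4 targets, in 0 of 4 sensors and factors and in 37 of 27025 genes in all (0.137%). A gene counted if any of its windows matched, with 32851 windows in all. The 6 genes are Hspa5, Hsp90b1, Creld2, Pdia6, Dnajc3 and Syvn1. The related element II, ATTGG and CCACG with 1 base between them, was found in Dnajb11 and Herpud1, against 0.0444% of all genes with a window. The Xbp1 element TGACGTGG (0.714% of all genes with a window) and the Atf4 element TGATGNAAT (1.08%), also searched on both strands, had no exact match in the windows of the 26 genes, which says only that these letters are not there. The sequences below show how the same letters recur in genes whose RNA levels are compared further on, and the capitals mark the 2 fixed parts of the element. Hspa5 is shown over 150 bases up to its start (chr2:34771940-34772089, plus strand), with the element 65 to 47 bases before the RefSeq start. GENCODE starts the gene further upstream, at 34771970, so that by GENCODE the element lies inside the gene. Hsp90b1 holds it at chr10:86705628-86705666 on the gene's strand and at chr10:86705523-86705561 on the opposite strand. The Creld2 stretch is chr15:88819510-88819548, read on the strand opposite to the gene, and those of Pdia6 (chr12:17266481-17266519), Dnajc3 (chr14:118937817-118937855), Syvn1 (chr19:6046522-6046560), Dnajb11 (chr16:22857847-22857867) and Herpud1 (chr8:94386372-94386392) are read on the gene's strand.
Hspa5: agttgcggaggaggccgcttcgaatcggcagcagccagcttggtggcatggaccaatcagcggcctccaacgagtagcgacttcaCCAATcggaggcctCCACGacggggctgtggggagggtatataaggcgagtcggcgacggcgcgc
Hsp90b1, first: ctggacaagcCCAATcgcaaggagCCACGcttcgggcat
Hsp90b1, second: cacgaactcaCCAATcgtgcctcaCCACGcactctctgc
Creld2: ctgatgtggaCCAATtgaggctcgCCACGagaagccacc
Pdia6: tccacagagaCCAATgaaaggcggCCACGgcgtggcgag
Dnajc3: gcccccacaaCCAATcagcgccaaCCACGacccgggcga
Syvn1: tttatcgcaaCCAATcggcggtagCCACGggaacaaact
Dnajb11: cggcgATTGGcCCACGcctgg
Herpud1: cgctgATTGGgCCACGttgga

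Levels are given as UMIs (counted RNA molecules) per 10000 UMIs, summed over the cells of a library, with whole UMIs recovered from the authors' log values. The libraries differ in size and depth: 12525 anti-PD-1, 297 ATT-I, 162 combination and 134 vehicle cells were kept, with a median of 7136, 6828, 21418.5 and 14140 UMIs. T cells were gated by their own UMIs, as CD8 (more Cd8a and Cd8b1 than Cd4, no Foxp3), CD4 Foxp3+ or CD4 Foxp3-, which took in 10153, 226, 149 and 116 cells. A UMI of the proliferation gene Mki67 was found in 33.1% of gated cells in anti-PD-1, 30.5% in ATT-I, 71.8% in the combination and 67.2% in vehicle. In the gated cells the 4 T cell markers summed to 32.5 to 47.9 per 10000 across libraries, while 5 tumour epithelial markers summed to 1.42 in ATT-I and 0.0938 to 0.175 elsewhere, although the labels name the tissue as tumour. In ATT-I, 1 gated cell held 299 of its 330 epithelial UMIs, and no other gated cell of the 4 libraries held more than 6. That cell passed the CD4 Foxp3- gate, had an Mki67 UMI and held 34 of the 51 Atf3 UMIs of ATT-I. Some of the results that it touches are therefore also given without it, a setting chosen after seeing the data. The other ATT-I values of gated cells, of CD4 Foxp3- cells and of cells with Mki67 include it. Without it, the epithelial markers summed to 0.136 in ATT-I. The 4 haemoglobin genes summed to 30.3 per 10000 in ATT-I, against 0.0344 to 0.732 in the other libraries. The 4 measured macrophage genes (of 6) summed to 0.0644 to 0.227, the 4 fibroblast genes to 0.0169 to 0.416 and the 3 measured B and plasma cell genes (of 7) to 0.409 to 0.657. The part of any of these in the results was not tested.

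The chaperone genes and the sensors and factors differed less between libraries than the Atf4 targets. The 19 chaperone genes together gave 24.5 UMIs per 10000 in anti-PD-1, 22.1 in ATT-I, 27.8 in the combination and 22.9 in vehicle. The 6 Atf4 targets together gave 1.93, 1.82, 2.27 and 1.31, with separate 95% intervals for the combination (2.11 to 2.44) and vehicle (1.14 to 1.49), and the 5 sensors and factors 2.28, 2.30, 2.60 and 2.39, in the same order of libraries. Atf3 gave 180 of the 726 Atf4 target UMIs in the combination, 48.9% of them in 5 cells, and 9 of the 232 in vehicle. In the combination, the Atf4 targets other than Atf3 summed to 1.69 in cells with Atf3 and 1.72 in cells without. They summed to 2.08 and 1.87 in anti-PD-1, and to 2.36 (8 cells) and 1.13 (108 cells) in vehicle. The highest place of the combination thus rests on Atf3. Without its cell rich in epithelial UMIs, ATT-I gave 21.2 for the chaperone genes, 1.68 for the Atf4 targets and 2.22 for the sensors and factors. Of the 30 genes, the widest spreads between libraries were 12.4-fold for Trib3 (1 to 122 UMIs per library), 11.4-fold for Atf3 and 4.79-fold for Chac1 (1 to 21 UMIs), and the narrowest was 1.04-fold for Ssr1, a translocon-associated protein subunit. Of the genes described most below, Xbp1 lies at chr11:5520659-5525893, Hspa5 at chr2:34771970-34777547 (from GENCODE's start), Sdf2l1 at chr16:17130138-17132383, Hsp90b1 at chr10:86690209-86705509 and Atf3 at chr1:191170296-191218039 (GRCm38, GENCODE), each protein-coding.

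**Figure D1:**
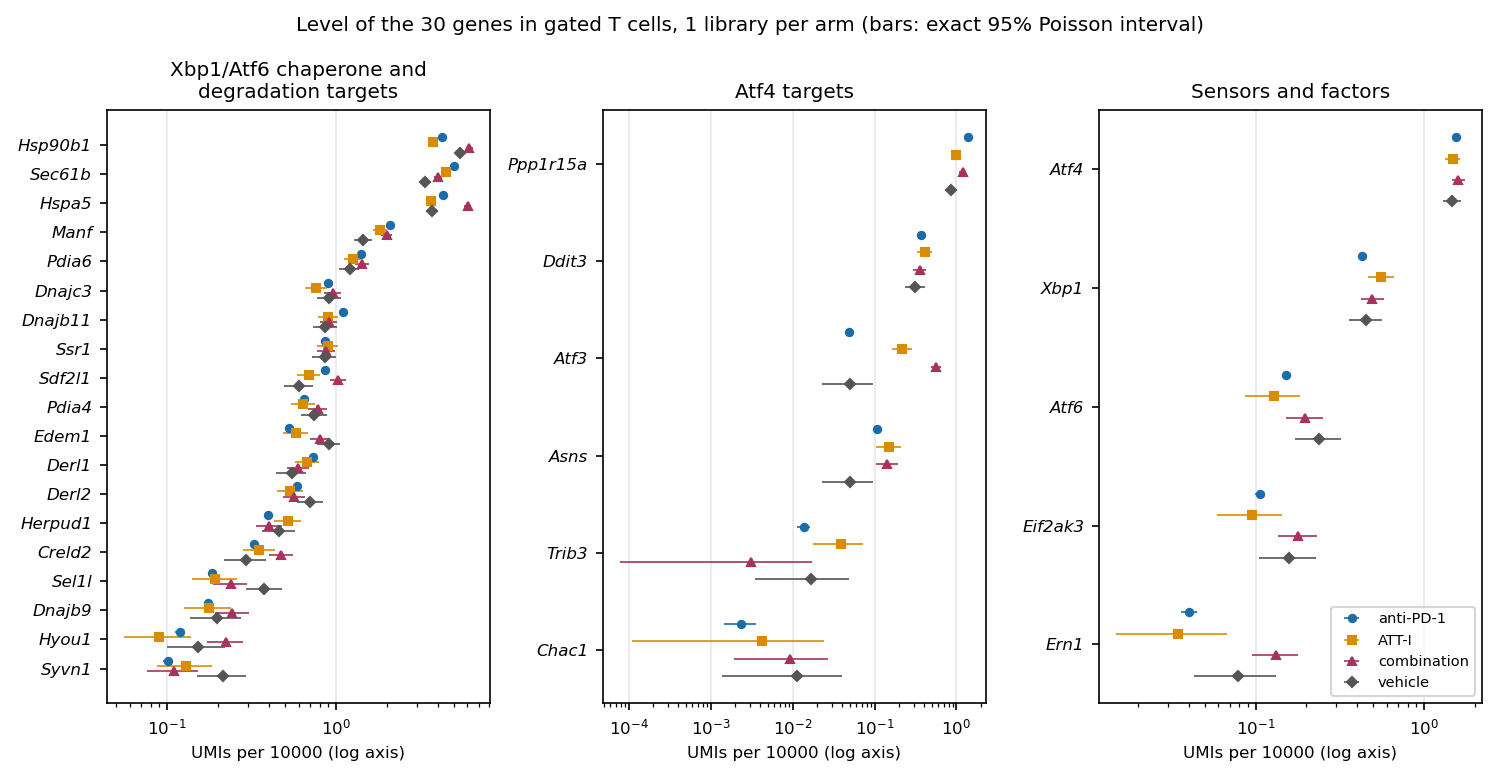
UMIs per 10000 (log axis) of each of the 30 genes in gated T cells of the 4 libraries, with exact 95% Poisson intervals that cover counting error only. Atf3 stands at 0.563 in the combination and 0.219 in ATT-I, against 0.0493 in anti-PD-1 and 0.0507 in vehicle, while Atf4 lies between 1.46 and 1.60 in the 4 libraries. Of the 51 Atf3 UMIs in ATT-I, 34 are in 1 cell.

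Cells with an Mki67 UMI were compared with cells without one inside each library, with the library as a block and 4 pairs. Of the 27 unfolded protein response genes that passed the filter of 0.1 UMIs per 10000, 4 were higher in cells with Mki67 and 0 were lower at an adjusted p of at most 0.05, with Ern1, Trib3 and Chac1 under the filter (limma, Benjamini-Hochberg over all 7638 genes tested). Over all genes, 8.79% were called higher and 5.51% lower. At an unadjusted p under 0.05 there were 6 of the 27, against 28.7% of all genes. The 4 genes are Sdf2l1, Hsp90b1, Creld2 and Manf, all of the chaperone group, whose median over its 19 tested genes was a log2 difference of 0.07, against -0.04 over all genes.

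Sdf2l1, a partner of the endoplasmic reticulum DnaJ proteins, had 1.12 UMIs per 10000 in cells with Mki67 and 0.635 in cells without in anti-PD-1, 0.932 and 0.409 in ATT-I, 1.12 and 0.583 in the combination arm, and 0.680 and 0.249 in vehicle. It rose by a log2 difference of 0.88 ± 0.12 (SE, 4 pairs; limma adjusted p = 0.00115) and was higher in 4 of 4 libraries, with no overlap between the levels of the 2 sets of cells. Hsp90b1 (GRP94), the Hsp90 chaperone of the endoplasmic reticulum, had 5.24 and 3.35 in anti-PD-1, 5.11 (4.74 without the cell rich in epithelial UMIs) and 2.21 in ATT-I, 6.45 and 4.80 in the combination arm, and 5.99 and 2.71 in vehicle. Hsp90b1 rose by a log2 difference of 0.78 ± 0.13 (SE, 4 pairs; limma adjusted p = 0.00283). With that cell included, its levels in the 2 sets of cells did not overlap either. Without it, the 4.74 of ATT-I cells with Mki67 lies below the 4.80 of combination cells without. The share of all genes with such separation, or with the same direction in 4 of 4 libraries, was not counted here or below. Sdf2l1 and Hsp90b1 passed the test with any 1 library left out. They also passed when cells were gated on UMIs thinned to 2000 per cell (log2 0.54 and 0.49; limma adjusted p = 0.0106 and 0.00309). That setting left out cells under 2000 UMIs and still took the levels from all UMIs. Sdf2l1 and Hsp90b1 were lost with no replicate block (limma adjusted p = 0.0954 and 0.0621), and within CD8-gated cells of 3 libraries Sdf2l1 passed (0.74, 0.0460) but Hsp90b1 did not (0.66, 0.0731).

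Creld2, a secreted chaperone with disulphide isomerase activity, had 0.411 UMIs per 10000 in cells with Mki67 and 0.256 in cells without in anti-PD-1, 0.478 and 0.205 in ATT-I, 0.497 and 0.371 in the combination arm, and 0.337 and 0.0935 in vehicle. Manf, a secreted survival factor that binds Hspa5, had 2.38 and 1.82 in anti-PD-1, 2.29 and 1.30 in ATT-I, 2.03 and 1.80 in the combination arm, and 1.55 and 0.998 in vehicle. Creld2 rose by log2 0.68 ± 0.16 and Manf by 0.42 ± 0.11 (SE, 4 pairs; limma adjusted p = 0.0214 and 0.0396), each higher in 4 of 4 libraries. These 2 calls were less firm. Creld2 was lost without ATT-I (0.64, limma adjusted p = 0.0984) or without vehicle (0.53, 0.0744). Manf was lost without anti-PD-1 (0.45, 0.0912), ATT-I (0.34, 0.172) or vehicle (0.37, 0.132). Both were lost after thinning (0.20 and 0.21; limma adjusted p = 0.404 and 0.217). Without the ATT-I cell rich in epithelial UMIs, the 4 genes were still called, with log2 0.87 for Sdf2l1, 0.75 for Hsp90b1, 0.67 for Creld2 and 0.40 for Manf (limma adjusted p = 0.00118, 0.00253, 0.0225 and 0.0410). Cells with Mki67 were deeper, with a median of 11009.5 against 6514 UMIs in anti-PD-1 and 24736 against 12743.5 in the combination. More of them were CD8-gated in each library, as in vehicle, with 48.7% against 21.1%. Manf lies over part of Rbm15b on the same strand in the GENCODE annotation, so reads of the 2 genes may be mixed in its count.

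**Figure D2:**
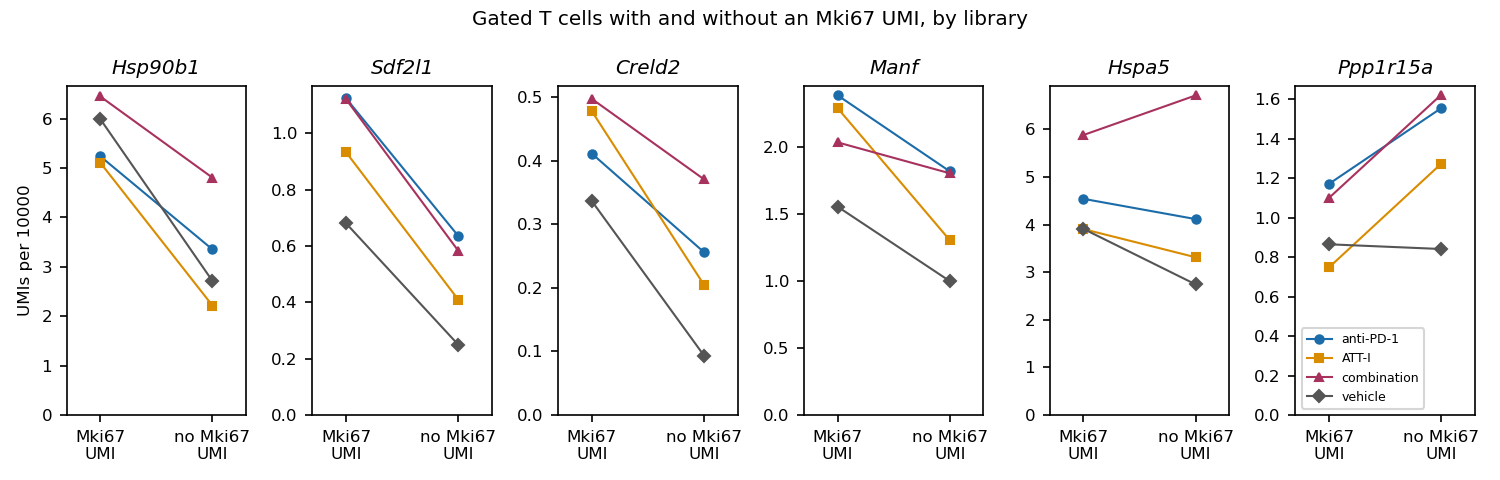
UMIs per 10000 of 6 genes in gated T cells with an Mki67 UMI (left of each panel) and without one (right), 1 line per library. The lines of Hsp90b1, Sdf2l1, Creld2 and Manf run down to the right in all 4 libraries, whereas Hspa5 runs up in the combination (5.88 against 6.71).

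Hspa5 (BiP), the main chaperone of the endoplasmic reticulum, did not follow these 4 genes. It had 4.54 UMIs per 10000 in cells with Mki67 and 4.11 in cells without in anti-PD-1, 3.90 (3.51 without the cell rich in epithelial UMIs) and 3.31 in ATT-I, 5.88 and 6.71 in the combination arm, and 3.91 and 2.74 in vehicle. The log2 difference was 0.11 ± 0.11 (SE, 4 pairs; limma adjusted p = 0.550), and it was -0.0043 without vehicle. Ppp1r15a (GADD34), which ends the translation block set by Eif2ak3, had 1.17 and 1.56 in anti-PD-1, 0.749 and 1.27 in ATT-I, 1.10 and 1.62 in the combination arm, and 0.866 and 0.842 in vehicle. It missed the threshold (log2 -0.45 ± 0.14; limma adjusted p = 0.0599) and passed it without vehicle (-0.60, 0.0231). Xbp1 gave -0.24 ± 0.12 (limma adjusted p = 0.214), lower in cells with Mki67 in 4 of 4 libraries. The list of further endoplasmic reticulum pathway genes had 2 of 28 higher and 0 lower. They were Sec11c, a signal peptidase subunit (0.61, limma adjusted p = 0.00370), and P4hb, a protein disulphide isomerase (0.41, 0.0375). The list of amino acid and translation stress genes had 5 of 29 higher and 0 lower. Among them were Psat1 (1.14, 0.00421) and Phgdh (0.76, 0.00144) of serine synthesis. The others were Mthfd2 (0.80, 0.00202) of mitochondrial folate metabolism, Pck2 (0.64, 0.0438), a mitochondrial carboxykinase, and Aars (0.56, 0.0434), an aminoacyl-tRNA synthetase.

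CD8-gated cells were compared with CD4 Foxp3- cells in the same way. Of 26 genes tested, 1 was higher (Sdf2l1) and 1 lower (Xbp1), against 9.54% higher and 8.48% lower of all 7701 genes. At an unadjusted p under 0.05 there were 4 of the 26, against 31.8% of all genes. Xbp1, the factor activated by Ern1, had 0.393 UMIs per 10000 in CD8-gated cells and 0.684 in CD4 Foxp3- cells in anti-PD-1, 0.441 and 0.683 in ATT-I, 0.384 and 0.745 in the combination arm, and 0.288 and 0.680 in vehicle. The gates did not overlap for Xbp1: the highest CD8 value was below the lowest CD4 Foxp3- value. The share of all genes separated in this way was not counted. It fell by 0.69 ± 0.13 on the log2 scale (SE, 4 pairs; limma adjusted p = 0.00723), and it was called in 15 of 15 alternative settings, among them cells with an Mki67 UMI alone (-0.72, limma adjusted p = 0.0265) and ATT-I without its cell rich in epithelial UMIs (-0.70, 0.00584). The chaperone group as a whole did not share the fall in Xbp1, with a median of -0.07 and 8 of 19 genes above 0, against 0.01 over all genes. Within it, Herpud1 (-0.24), Derl1 (-0.24), Derl2 (-0.21) and Pdia4 (-0.16) were lower in 4 of 4 libraries without passing the test (limma adjusted p = 0.253, 0.200, 0.281 and 0.350). Sdf2l1 alone of the group was higher in 4 of 4 libraries.

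Sdf2l1 had 0.881 UMIs per 10000 in CD8-gated cells and 0.670 in CD4 Foxp3- cells in anti-PD-1, 0.713 and 0.669 in ATT-I, 1.11 and 0.447 in the combination arm, and 0.704 and 0.280 in vehicle. It rose by log2 0.73 ± 0.18 (SE, 4 pairs; limma adjusted p = 0.0253). The call was lost without the combination (0.58, 0.122) or vehicle (0.58, 0.106) and among cells with an Mki67 UMI (0.54, 0.159). CD8-gated cells held more cells with Mki67 in each library (87.0% against 43.2% in the combination). Near the threshold were Hsp90b1 (0.40 ± 0.14; limma adjusted p = 0.0847) and Ddit3 (0.41 ± 0.14; 0.0678), of which Hsp90b1 passed it in 5 of 15 alternative settings, among them without ATT-I (0.55, 0.0268) and without the ATT-I cell rich in epithelial UMIs (0.47, 0.0281). Atf3 was called lower when vehicle was left out (-1.03, 0.0280) and gave -0.56 ± 0.33 (0.284) with the 4 libraries, or -0.08 (0.861) without the ATT-I cell rich in epithelial UMIs. Among the pathway genes, Sec11c was higher (0.45, 0.0136) and Erlec1, a lectin of glycoprotein degradation, was lower (-0.81, 0.00363). Psat1 (1.0, 0.0178), Phgdh (0.92, 0.00335) and Shmt2 (0.66, 0.0113), all of serine and glycine metabolism, were higher. These were 1 higher and 1 lower of 29 endoplasmic reticulum genes and 3 higher and 0 lower of 29 stress genes.

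**Figure D3:**
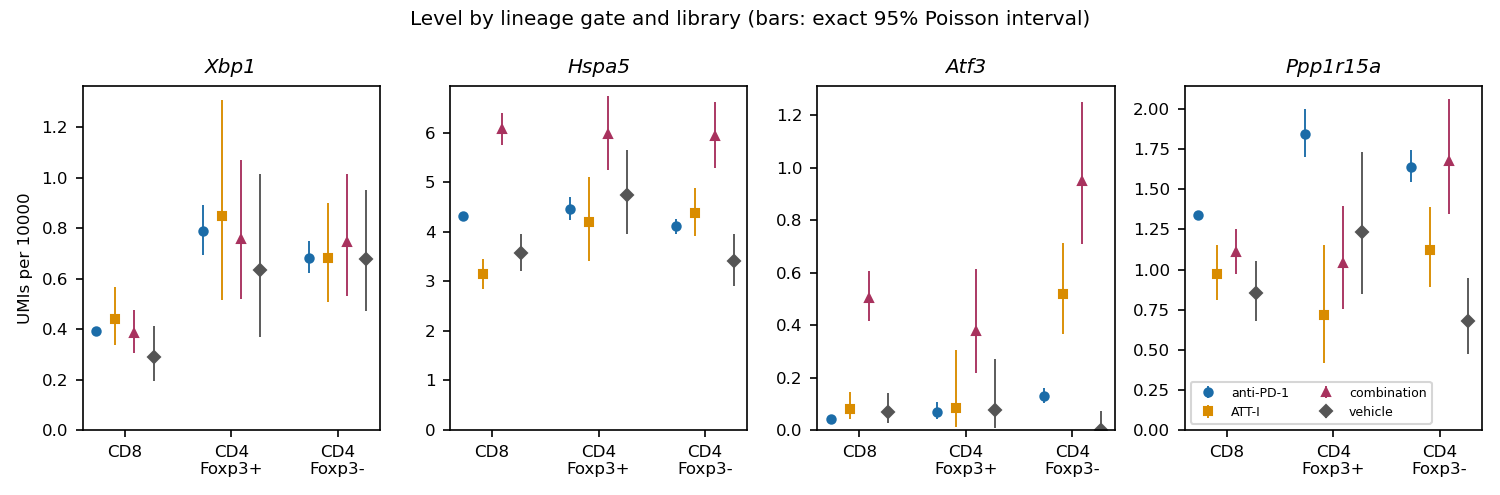
UMIs per 10000 of Xbp1, Hspa5, Atf3 and Ppp1r15a in CD8, CD4 Foxp3+ and CD4 Foxp3- gated cells of the 4 libraries, with exact 95% Poisson intervals. Xbp1 is at 0.288 to 0.441 in CD8-gated cells and at 0.635 to 0.847 in both CD4 gates, while Atf3 reaches 0.950 in CD4 Foxp3- cells of the combination.

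Among CD4-gated cells, Foxp3+ cells (regulatory T cells) were compared with Foxp3- cells. Of 26 genes tested, 0 were called in either direction by limma, 4 had an unadjusted p under 0.05 (against 19.2% of all genes), and 2.3% of all 7707 genes were called higher and 3.5% lower. Hsp90b1 had 4.44 UMIs per 10000 in Foxp3+ and 3.76 in Foxp3- cells in anti-PD-1, 4.36 and 3.92 (3.17 without the cell rich in epithelial UMIs) in ATT-I, 5.16 and 4.88 in the combination arm, and 5.79 and 3.42 in vehicle. Hsp90b1 (log2 0.31), Manf (0.35), Pdia6 (0.39), Pdia4 (0.23) and Asns (0.64) were each higher in Foxp3+ cells of 4 of 4 libraries without passing the test (limma adjusted p = 0.249, 0.289, 0.201, 0.457 and 0.176). Pdia4 and Pdia6 are disulphide isomerases and Asns makes asparagine. The chaperone group had a median of 0.14 with 11 of 19 genes above 0, against 0.00 over all genes. Without vehicle, Atf3 was called lower in Foxp3+ cells (-1.10, limma adjusted p = 0.0335), and with the 4 libraries it gave -0.62 ± 0.33 (0.342), or -0.13 (0.844) without the ATT-I cell rich in epithelial UMIs. Of the pathway genes, the oxidase Ero1l (0.71, 0.0419) and the lectin chaperone Canx (0.69, 0.0206) were higher among 30 endoplasmic reticulum genes. Phgdh (1.38, 0.000341), Psat1 (1.01, 0.0189) and the transcription factor Cebpb (0.72, 0.0258) were higher among 29 stress genes, and 0 were lower in either list. The Foxp3+ gate held 388, 18, 20 and 17 cells, which limits the precision. Foxp3+ cells were deeper than Foxp3- cells in each library and more of them had an Mki67 UMI, with 35.6% against 26.5% in anti-PD-1, 50% against 18.9% in ATT-I, 55% against 43.2% in the combination arm and 94.1% against 45.3% in vehicle, and the part of this in the values was not tested.

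CD8-gated cells were then split within each library at the median of Gzmb, the gene of the cytotoxic protease granzyme B. Of 26 genes tested, 0 were called by limma and 5 had an unadjusted p under 0.05 (against 10.4% of all genes), with 0.359% of 7523 genes called higher and 0.146% lower. Sdf2l1 (log2 0.42 ± 0.13; limma adjusted p = 0.334), Hsp90b1 (0.34 ± 0.10; 0.290) and Dnajb11 (0.27 ± 0.10; 0.413), a DnaJ co-chaperone of Hspa5, were each higher in the Gzmb-high cells of 4 of 4 libraries. So were Eif2ak3 (0.47 ± 0.18; 0.413) and Derl2 (0.33 ± 0.14; 0.436), a channel component of degradation. Ppp1r15a gave -0.27 ± 0.14 (0.520), and the chaperone group's median was 0.09, against 0.00 over all genes. Gzmb-high cells were deeper in each library (12560 against 7500 UMIs in ATT-I). More of them had an Mki67 UMI in anti-PD-1 (35.5% against 32.0%), ATT-I (47.5% against 25.4%) and the combination (95.7% against 78.3%). Fewer did in vehicle (78.3% against 87.0%). Among cells with Mki67, 1 of 27 genes had an unadjusted p under 0.05 (limma), against 645 of all 7538. The part of this make-up was not tested.

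Gated cells were also split at the median level of Hspa5 and, separately, of Atf4, so that the gene used for a split is left out of its own comparison. Between Hspa5-high and Hspa5-low cells, 1 of 26 genes was called higher and 0 lower, against 0.0393% and 0.0262% of 7636 genes, which include Hspa5 itself. At an unadjusted p under 0.05 there were 9 of the 26, against 10.2% of all genes. The gene was Hsp90b1, with 4.87 UMIs per 10000 in Hspa5-high and 3.48 in Hspa5-low cells in anti-PD-1, 4.28 and 3.12 in ATT-I, 7.27 and 5.02 in the combination arm, and 5.94 and 4.74 in vehicle. It rose by log2 0.42 ± 0.06 (SE, 4 pairs; limma adjusted p = 0.0460). The call was lost without anti-PD-1 (0.41, 0.110), ATT-I (0.42, 0.0714), the combination (0.39, 0.243) or vehicle (0.45, 0.193), and without the ATT-I cell rich in epithelial UMIs (0.38, 0.0690), and held in 2 of 15 alternative settings. The chaperone group's median was 0.17 with 15 of 18 genes above 0, against -0.02 for the Atf4 targets (2 of 4 above 0) and 0.00 over all genes. Pdia6 (0.42), Creld2 (0.39), Pdia4 (0.39) and Manf (0.33) were each higher in 4 of 4 libraries with limma adjusted p between 0.136 and 0.230, and Creld2 gave -0.30 among cells without an Mki67 UMI. Among those cells Hsp90b1 gave 0.32 (limma adjusted p = 0.863), and 2 of 24 genes had an unadjusted p under 0.05, against 362 of all 7470. Hspa5-high cells were deeper in each library. More of them had an Mki67 UMI in anti-PD-1 (36.5% against 29.7%), ATT-I (35.4% against 25.7%) and vehicle (75.9% against 58.6%). Fewer did in the combination (66.2% against 77.3%). The part of this was not tested.

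Between Atf4-high and Atf4-low cells, 0 of 26 genes were called by limma and 6 had an unadjusted p under 0.05 (against 7.11% of all genes), and Atf4 itself was the 1 gene called among 7635 (0.0131% higher, 0% lower). Here, with the ATT-I cell rich in epithelial UMIs included, the Atf4 targets had a median of 0.42 with 4 of 4 genes above 0, and the chaperone genes a median of 0.07 with 11 of 19 above 0. Ddit3, the pro-apoptotic stress factor CHOP, had 0.416 UMIs per 10000 in Atf4-high and 0.329 in Atf4-low cells in anti-PD-1, 0.444 and 0.370 in ATT-I, 0.456 and 0.267 in the combination arm, and 0.468 and 0.135 in vehicle. Ddit3 (0.57 ± 0.17), Atf3 (0.54 ± 0.16) and Ppp1r15a (0.29 ± 0.08) were each higher in 4 of 4 libraries, with limma adjusted p = 0.551, 0.551 and 0.551, and Atf3 gave 0.22 (0.767) without the ATT-I cell rich in epithelial UMIs. The other 3 with an unadjusted p under 0.05 were Hsp90b1 (0.22), Herpud1 (0.24) and Derl1 (-0.26). Ddit3 overlaps Mars on the opposite strand, and the strand of counting is not given in the sources used here.

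**Figure D4:**
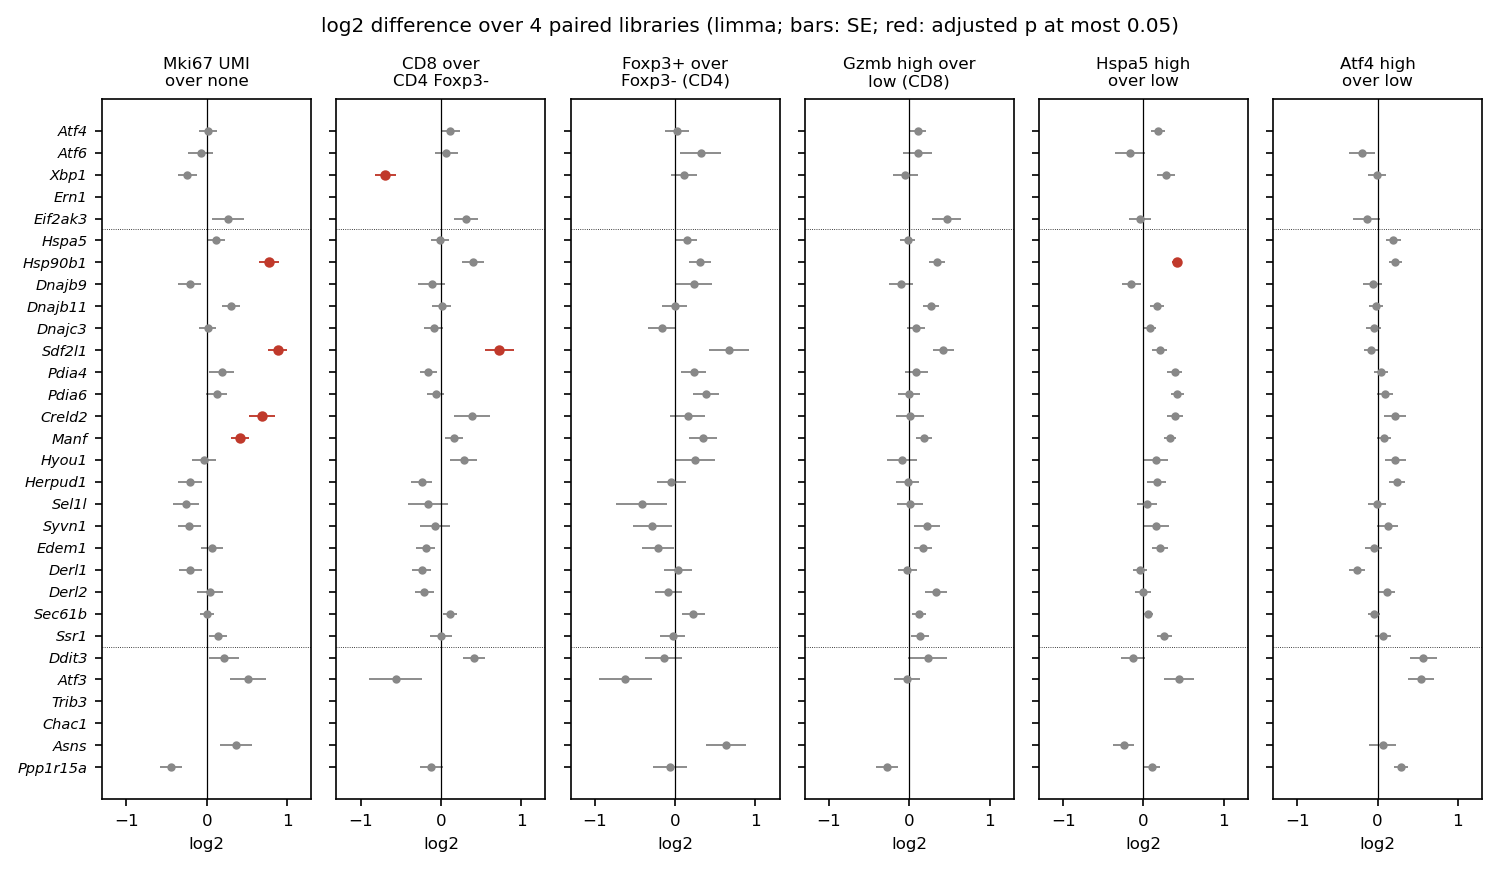
log2 difference (limma, library block, 4 pairs; bars are SE) of each gene in 6 comparisons within libraries, with sensors at the top, chaperone genes in the middle and Atf4 targets at the bottom; red marks an adjusted p of at most 0.05 and a gap a gene under the filter. Sdf2l1, Hsp90b1, Creld2 and Manf are red in the Mki67 panel, Xbp1 (-0.69) and Sdf2l1 (0.73) in the CD8 panel and Hsp90b1 (0.42) in the Hspa5 panel.

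The arms were compared in all gated cells as log2 ratios relative to the median gene, since the median over all genes was -0.42 for anti-PD-1 over vehicle, -0.39 for ATT-I over vehicle, -0.09 for the combination over vehicle, 0.30 for the combination over anti-PD-1 and 0.27 for the combination over ATT-I. A gene entered where at least 10% of cells of either library had a UMI, and genes are counted past 1.5-fold. The 3 comparisons with vehicle share its library of 116 gated cells, and each interval covers counting error only. Depth and the share of cells with Mki67 differed between these libraries as given above. The lineage make-up differed too. CD8-gated cells were 8819 of 10153 gated cells in anti-PD-1, 118 of 226 in ATT-I, 92 of 149 in the combination and 46 of 116 in vehicle. The part of depth, Mki67 and lineage make-up in the ratios was not tested.

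Hspa5 had 4.31 UMIs per 10000 in anti-PD-1, 3.63 in ATT-I, 6.03 in the combination and 3.70 in vehicle. The combination held the highest Hspa5 level in CD8-gated cells (6.06, against 4.32 for anti-PD-1, 3.14 for ATT-I and 3.57 for vehicle) and in CD4 Foxp3- cells (5.93, against 4.11, 4.37 and 3.40, where ATT-I had 3.72 without its cell rich in epithelial UMIs). In CD4 Foxp3+ cells the combination had 5.96 (95% interval 5.25 to 6.74), which overlaps the 4.74 (3.95 to 5.64) of vehicle. The level was also highest in the combination among cells with an Mki67 UMI (5.88, against 4.54, 3.90 and 3.91) and among cells without one (6.71, against 4.11, 3.31 and 2.74). In cells outside the gates Hspa5 had 4.49 UMIs per 10000 in anti-PD-1 (2372 cells), 3.65 in ATT-I (71), 4.76 in the combination (13) and 5.10 in vehicle (18). Vehicle was highest there, but the few cells of the combination and vehicle limit the precision of that order. Over vehicle, the log2 ratio of Hspa5 relative to the median gene was 0.79 (95% interval 0.66 to 0.92) in the combination, 0.64 (0.53 to 0.76) in anti-PD-1 and 0.36 (0.22 to 0.51) in ATT-I. Not taken relative to the median gene, the ratio was 0.70, 0.22 and -0.03. The combination gave 0.19 (0.12 to 0.25) over anti-PD-1 and 0.46 (0.35 to 0.58) over ATT-I.

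Of the other chaperone genes, Sdf2l1 had 0.859 UMIs per 10000 in anti-PD-1, 0.691 in ATT-I, 1.03 in the combination and 0.602 in vehicle. Its ratio was past 1.5-fold over vehicle in each arm (0.93, 0.59 and 0.85). Not taken relative to the median gene, it was past 1.5-fold in the combination (0.77) but not in anti-PD-1 (0.51) or ATT-I (0.20). Sec61b, a subunit of the translocon through which new proteins enter the endoplasmic reticulum, had 5.02 in anti-PD-1, 4.46 in ATT-I, 4.01 in the combination and 3.36 in vehicle. Sel1l, an adaptor of the degradation complex, had 0.183 in anti-PD-1, 0.193 in ATT-I, 0.238 in the combination and 0.377 in vehicle, with ratios of -0.62 (past 1.5-fold), -0.57 and -0.58 relative to the median gene, and of -1.04, -0.97 and -0.67, each past 1.5-fold, otherwise. Its ligase partner Syvn1 had 0.101 in anti-PD-1, 0.129 in ATT-I, 0.109 in the combination and 0.214 in vehicle, with ratios of -0.66, -0.34 and -0.88 relative to the median gene, and of -1.08, -0.73 and -0.97 otherwise. Genes of the same group thus lay on both sides of 0.

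Hsp90b1 had 4.21 UMIs per 10000 in anti-PD-1, 3.77 in ATT-I, 6.16 in the combination and 5.40 in vehicle, so that its ratio over vehicle was 0.06, -0.13 and 0.28 relative to the median gene, and -0.36, -0.52 and 0.19 otherwise. Hyou1, a large chaperone that exchanges nucleotide on Hspa5, had 0.119, 0.0901 and 0.222, against 0.152 in vehicle, from 1065, 21, 71 and 27 UMIs. Its ratio in the combination was past 1.5-fold over vehicle (0.63), with an interval that holds 0 (-0.03 to 1.33). Manf had 2.08, 1.83 and 1.99, against 1.45 in vehicle, and was past 1.5-fold in anti-PD-1 (0.94) and ATT-I (0.73) but not in the combination (0.54), and in none of the 3 when not taken relative to the median gene (0.51, 0.34 and 0.45). Creld2 had 0.327, 0.352 and 0.475, against 0.293 in vehicle, and was past 1.5-fold in the combination on both scales (0.78 and 0.70). Derl1, a channel component of degradation, had 0.730, 0.674 and 0.597, against 0.546 in vehicle, while its paralog Derl2 had 0.588, 0.537 and 0.566, against 0.704 in vehicle. Edem1, which trims mannose from misfolded glycoproteins, had 0.529, 0.579 and 0.800, against 0.906 in vehicle. Herpud1, an adaptor of the degradation complex, had 0.397, 0.519 and 0.403, against 0.462 in vehicle. The DnaJ co-chaperones Dnajb9 (0.174, 0.176 and 0.244, against 0.197 in vehicle) and Dnajc3 (0.900, 0.764 and 0.956, against 0.912) were not past 1.5-fold over vehicle on either scale in the 3 arms. Dnajb11 had 1.10, 0.901 and 0.909, against 0.861 in vehicle, and was past 1.5-fold in anti-PD-1 (0.77; 0.35 when not taken relative to it). The disulphide isomerase Pdia6 had 1.40, 1.26 and 1.43, against 1.20 in vehicle, and was past 1.5-fold in anti-PD-1 (0.64; 0.22 otherwise). Pdia4 had 0.644, 0.640 and 0.778, against 0.743 in vehicle, with ratios of 0.21, 0.17 and 0.15 (-0.21, -0.22 and 0.07 otherwise). Derl1, Derl2, Edem1, Herpud1, Hyou1, Dnajb9, Dnajc3, Sel1l and Syvn1 were called in none of the 6 comparisons within libraries (limma adjusted p of at least 0.200).

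Over the 19 chaperone genes, anti-PD-1 over vehicle had a median of 0.40 with 7 past 1.5-fold higher and 2 lower, against 21.6% higher and 21% lower of all 8577 genes. The median was -0.02 with 0 higher and 3 lower when ratios were not taken relative to the median gene (all genes 6.16% and 41.9%). ATT-I over vehicle had 0.36 with 5 higher and 0 lower (all genes 15.9% and 17.9%), and -0.03 with 0 and 4 on the other scale (3.28% and 38%). The combination over vehicle had 0.21 with 4 higher and 1 lower (7.09% and 10%), and 0.13 with 3 and 2 (5.26% and 13.2%). The combination had a median of -0.18 over anti-PD-1 with 1 higher and 2 lower (17.4% and 16.3%), which turned to 0.11 with 2 and 0 (32% and 5.83%). It had 0.02 over ATT-I with 1 and 1 (15.3% and 12.5%), or 0.28 with 3 and 0 (29% and 4.72%). The direction of the group against vehicle thus kept its sign on both scales in the combination and turned in anti-PD-1 and ATT-I.

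**Figure D5:**
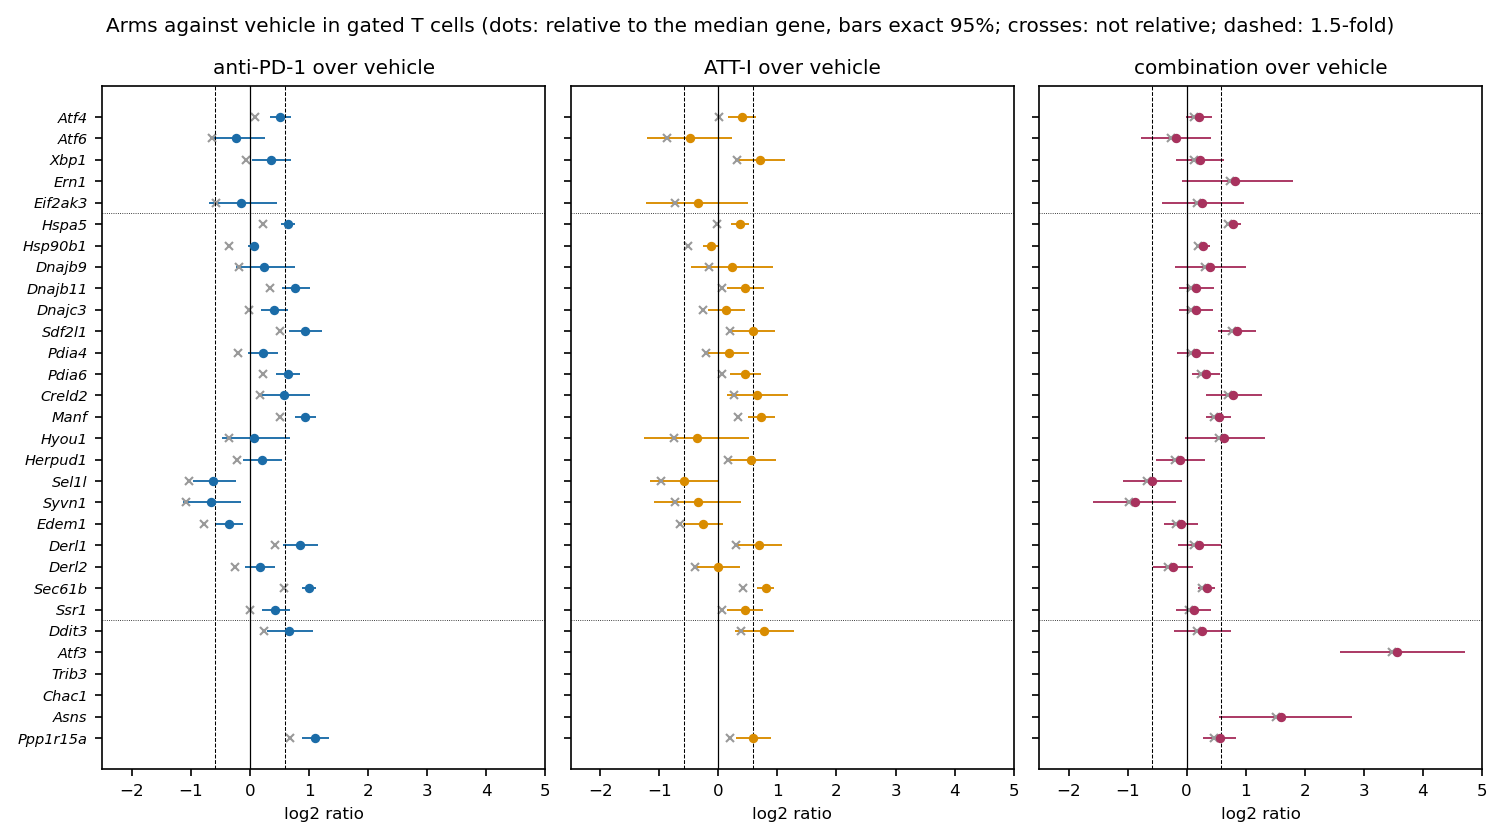
log2 ratio over vehicle in gated T cells for anti-PD-1, ATT-I and the combination, with dots and exact 95% intervals relative to the median gene, grey crosses for the ratio not taken relative to it, and dashed lines at 1.5-fold; a gap marks a gene under the filter of cells with a UMI. Dots and crosses lie 0.42 apart in anti-PD-1 and 0.09 apart in the combination, and Atf3 stands at 3.56 in the combination.

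Atf3, a stress-induced transcription factor, had the widest difference between arms of the Atf4 targets that passed the filter. It had 0.0493 UMIs per 10000 in anti-PD-1 (441 UMIs), 0.219 in ATT-I (51 UMIs), 0.563 in the combination (180 UMIs) and 0.0507 in vehicle (9 UMIs). Without the ATT-I cell rich in epithelial UMIs, Atf3 was at 0.0748 (95% interval 0.0436 to 0.120) in ATT-I. The combination lay 3.56 log2 above vehicle (95% interval 2.60 to 4.71), 3.22 above anti-PD-1 (2.96 to 3.47) and 1.09 above ATT-I (0.64 to 1.57), or 2.63 without that cell, each relative to the median gene. The combination was highest in the CD8 gate (0.504, against 0.0419 for anti-PD-1, 0.0808 for ATT-I and 0.0694 for vehicle), the CD4 Foxp3+ gate (0.378, against 0.0694, 0.0847 and 0.0747) and the CD4 Foxp3- gate (0.950, against 0.129, 0.519 and 0 in vehicle's 53 cells, where 3 UMIs would be 0.0600). In the CD4 Foxp3- gate, ATT-I had 0.0592 without the cell named above. Few cells carried these UMIs. In ATT-I the 5 highest of 14 cells with Atf3 held 82.4% of its UMIs and the cell named above held 34, and in the combination the 5 highest of 42 cells held 48.9%, the highest cell 27. The 11 dissociation and immediate early genes, such as Fos and Jun, which tissue handling also induces, summed to 28.3 per 10000 in anti-PD-1, 38.5 in ATT-I, 42.3 in the combination and 31.6 in vehicle. Within the combination they summed to 44.4 in cells with Atf3 and 41.2 in cells without. Cells of the combination with Atf3 were also deeper (median of 27929 against 18453 UMIs), and the part of handling or depth in the Atf3 level was not tested.

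Atf4 itself had 1.55 UMIs per 10000 in anti-PD-1, 1.48 in ATT-I, 1.60 in the combination and 1.46 in vehicle, a spread of 1.09-fold. Ppp1r15a had 1.38 in anti-PD-1, 0.992 in ATT-I, 1.19 in the combination and 0.861 in vehicle. Its log2 ratio over vehicle relative to the median gene was 1.10 (95% interval 0.87 to 1.34), 0.59 (0.29 to 0.90) and 0.56 (0.28 to 0.84), or 0.68, 0.20 and 0.47 when not taken relative to it. Asns had 0.108, 0.150 and 0.144 in the treated arms, against 0.0507 in vehicle, where it rests on 9 UMIs, and in the combination its ratio was 1.59 (0.54 to 2.81). Ddit3 had 0.372, 0.412 and 0.356 in the treated arms, against 0.315 in vehicle. Over the Atf4 targets that passed the filter, anti-PD-1 had 2 of 2 past 1.5-fold higher (median 0.88), ATT-I 2 of 2 (0.69) and the combination 2 of 4 (1.07), with 0 lower. Of all genes, 21.6%, 15.9% and 7.09% were higher and 21%, 17.9% and 10% lower. The medians of the Atf4 targets were 0.46, 0.29 and 0.99 when not taken relative to the median gene, with 1, 0 and 2 genes past 1.5-fold higher. On that scale 6.16%, 3.28% and 5.26% of all genes were higher. The medians are not over the same genes and give no order of the arms. In the comparisons of the combination with vehicle, anti-PD-1 and ATT-I, Atf3 and Asns passed the filter only through the combination. There 28.2% of cells had an Atf3 UMI and 22.8% an Asns UMI, against 6.90% for each in vehicle. They are the 2 genes past 1.5-fold in the combination. Trib3, an inhibitor of Akt signalling, had 122, 9, 1 and 3 UMIs, and Chac1, which breaks down glutathione, 21, 1, 3 and 2, in anti-PD-1, ATT-I, the combination and vehicle, so both were left out of the ratios.

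Of the sensors, Ern1 had 0.0402 UMIs per 10000 in anti-PD-1, 0.0343 in ATT-I, 0.131 in the combination and 0.0788 in vehicle, from 359, 8, 42 and 14 UMIs. The combination lay 1.41 log2 above anti-PD-1 (95% interval 0.92 to 1.88) and 1.67 above ATT-I (0.56 to 2.97), and 0.82 above vehicle (-0.08 to 1.81), where the interval holds 0. Eif2ak3 had 0.106, 0.0944 and 0.178, against 0.158 in vehicle, and Atf6 had 0.151, 0.129 and 0.197, against 0.236 in vehicle. Xbp1 had 0.428, 0.558 and 0.494, against 0.450 in vehicle. In ATT-I its ratio of 0.70 (0.29 to 1.12) was the 1 of 4 sensors and factors in that comparison past 1.5-fold, where 15.9% of all genes were higher. That ratio was 0.31 when not taken relative to the median gene. In CD8-gated cells alone, given above, Xbp1 was higher in anti-PD-1 than in vehicle, and in CD4 Foxp3- cells the 2 were nearly equal. Over vehicle, the sensors and factors that passed the filter had a median of 0.10 (anti-PD-1, 4 genes), 0.03 (ATT-I, 4 genes) and 0.22 (combination, 5 genes), or -0.32, -0.36 and 0.13 when not taken relative to the median gene. Ern1 is counted only in the combination, so these medians are not over the same genes.

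The pathway lists were read in the same comparisons, with the shares of all genes given above for each comparison and scale. Over vehicle, the endoplasmic reticulum list had 13 higher and 4 lower of 30 for anti-PD-1, 9 and 1 of 30 for ATT-I, and 4 and 1 of 31 for the combination. The stress list had 4 and 6, 7 and 3, and 1 and 0 of 31. In anti-PD-1 the widest ratios were those of Edem2 (1.90), of mannose trimming, Ssr2 (1.25), of the translocon, Edem3 (-1.16), Sec24d (-1.04), of transport vesicles, and Ostc (1.02), of the glycosylation complex. In the stress list they were Eif4ebp1 (1.58), a translation repressor, Sesn2 (-1.46), Slc3a2 (1.42), an amino acid transporter subunit, Cebpb (1.33) and Slc7a5 (-1.17). In ATT-I they were Edem2 (1.45), Txndc5 (1.16), Ssr2 (1.15), Sec24d (-0.84) and Tmed2 (0.78), and Eif4ebp1 (1.65), Eif2ak2 (-1.37), Aldh18a1 (1.23), Slc3a2 (1.11) and Mars (1.0). In the combination they were Creb3l2 (1.43), a transcription factor related to Atf6, Sec24d (-0.99), Hspa13 (0.88), Sil1 (0.82) and Calr (0.69), a lectin chaperone. The 1 stress gene was Eprs (0.72), a tRNA synthetase. Not taken relative to the median gene, the endoplasmic reticulum list had 3 higher and 8 lower for anti-PD-1, 3 and 5 for ATT-I, and 4 and 1 for the combination, and the stress list 3 and 10, 4 and 8, and 1 and 0, where 41.9%, 38% and 13.2% of all genes were lower.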

How the data were processed

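Each arm was 1 droplet library of 5 pooled tumours. The authors deposited 1 table of natural log values, and per the submitters' processing notes they used Cell Ranger, Seurat and mm10, whose versions are not given in the sources used here. With 1 constant per library (0.249 anti-PD-1, 0.153 ATT-I, 0.225 combination, 0.247 vehicle), 100% of the non-zero values gave whole UMIs (tolerance 0.02). The constant had brought 1-UMI values to 0 in 37, 0, 37 and 21 cells, which were left out after the file had been seen. Before this step the libraries held 108628721, 2878355, 5232593 and 3099824 UMIs. Of the barcodes, 1 is found in 2 libraries.

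UMIs were summed per library and gate (at least 10 cells) and scaled to 10000. Comparisons within libraries used limma 3.58.1 in R 4.3.3 on log2 values with a pseudocount of 0.1, centred on the median gene, with the library as a block and genes averaging at least 0.1 UMIs per 10000, at an adjusted p of at most 0.05. Such folds understate changes of low genes. The numbers pair the samples because both gates come from the same library, and p-values measure the spread between these 4 libraries, which are different arms. Arms were compared without a test, with exact 95% intervals. Sums, intervals and figures used pandas 2.3.3, scipy 1.17.1, matplotlib 3.10.9 and numpy 2.4.6 (Python 3.11.15), and the test was tried on simulated data. No doublet caller was run; an alternative leaves out cells above the 95th depth percentile of their library or with 2 UMIs each of CD8 and CD4 genes. Other alternatives changed the block, pseudocount, filter, centring, averaging, depth used for gating (2000 UMIs), Mki67 make-up, left-out cells, the cell with 10 or more tumour epithelial UMIs and each library. The naming rule takes the 30 genes, and of the pathway lists up to 5 genes per comparison with the widest fold among those called or past 1.5-fold; genes of the 30 with no value of their own in a comparison are in their group's counts. Genes and lists were chosen with earlier results of these data known. Positions are from GENCODE M21 and RefSeq (GRCm38).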

Additional observations from a re-analysis of the deposited data

How the results depend on the processing

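Of the 15 alternatives per comparison within libraries (14 for Foxp3), those with left-out cells put back, those without the cell of 10 or more epithelial UMIs and those limited to cells with Mki67 in the CD8, Foxp3 and Gzmb comparisons were chosen after seeing the data. The Mki67 count of 4 genes became 0 with no replicate block, 2 without a filter, 2 after thinning and 1 in CD8-gated cells (3 libraries, vehicle having 8 cells without Mki67), and 2 to 4 with a library left out. The CD8 count of 2 became 1 with no replicate block, without a filter and among cells with Mki67, and 1 to 3 with a library left out. The Foxp3 count of 0 was 0 to 1, and was 0 with no replicate block. The Hspa5 count of 1 became 0 with no replicate block, a pseudocount of 0.5, no filter, means over cells, deep or double-positive cells left out, thinning, cells without Mki67, left-out cells put back, the epithelial-rich cell left out, and 0 to 0 with a library left out. The Foxp3 comparison could not be fitted after thinning, and among cells with Mki67 it used 3 libraries. Hspa5 reversed in the Mki67 comparison without vehicle (-0.0043, the range with a library left out being -0.0043 to 0.23) and in CD8-gated cells (-0.13), Creld2 in the Hspa5 comparison among cells without Mki67 (-0.30), and Herpud1 for the combination over ATT-I among cells without Mki67 (0.070). Not relative to the median gene, the chaperone medians were -0.020 (anti-PD-1 over vehicle), -0.026 (ATT-I over vehicle) and 0.11 (combination over anti-PD-1), and the Atf4 target medians 0.46 (anti-PD-1 over vehicle) and 0.17 (combination over anti-PD-1). Among cells without Mki67 the Atf4 target medians were 1.56 and 1.35 for anti-PD-1 and ATT-I over vehicle, and the chaperone median 0.027 for the combination over anti-PD-1, which was 0.016 with left-out cells put back. Without a filter the Atf4 target median of ATT-I over vehicle was 1.18. Over all genes, calls across these settings ranged from 313 to 804 higher and 36 to 547 lower (Mki67; 671 and 421 in the reported setting), 245 to 865 and 268 to 810 (CD8; 735 and 653), 33 to 307 and 50 to 365 (Foxp3; 177 and 270), 1 to 27 and 0 to 26 (Gzmb; 27 and 11), 0 to 5 and 0 to 4 (Hspa5; 3 and 2), and 1 to 16 and 0 to 5 (Atf4; 1 and 0). The cause of these shifts was not tested. Trib3, Chac1, Ern1 and Atf3 have few UMIs in vehicle, which limits their ratios.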

Other observations

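Across the 12 sets of 1 library and 1 lineage gate, the 6 Atf4 targets summed to 0.940 UMIs per 10000 in CD4 Foxp3- cells of vehicle, their lowest level, and to 3.00 in CD4 Foxp3- cells of the combination, their highest. Of these sums, Atf3 made up 0 in vehicle and 0.950 in the combination. The 19 chaperone genes summed to 20.5 in CD8-gated cells of ATT-I and in CD4 Foxp3- cells of vehicle, and to 28.3 in CD8-gated cells of the combination. The levels of the 2 groups over the 12 sets had a Pearson correlation of 0.49 and a Spearman correlation of 0.41, given as a description since sets share a library, its depth and its handling. In vehicle, CD8-gated, CD4 Foxp3+ and CD4 Foxp3- cells held 23.2, 26.4 and 20.5 UMIs per 10000 of the chaperone genes, and in ATT-I 20.5, 25.7 and 24.0 (21.3 in CD4 Foxp3- cells without the 1 cell rich in epithelial UMIs).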
